A study of Mus musculus with 11 samples.

Results

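The 36 genes described here drive or restrain the mammalian cell cycle, and they were taken by symbol from a count table of 54532 mouse genes. They comprise 9 genes of the G1 phase (the D and E cyclins, their kinases and the transcription factor E2F1), 13 genes of replication licensing and DNA synthesis, 12 genes of G2 and mitosis, and 2 inhibitors of cyclin-dependent kinases. Whole pancreas of C57BL/6JRj mice, bought from Janvier Labs and kept on chow, was profiled by sequencing polyadenylated RNA, with 1 mouse per library according to the sample titles. The 4 groups were 3 untreated mice of 7 weeks (young), 2 untreated mice of 18 months (aged, numbered 2 and 3), 3 young caerulein mice and 3 aged caerulein mice. Caerulein is an analogue of the gut hormone cholecystokinin that overstimulates acinar cells and so causes acute pancreatitis. It was injected into the peritoneum at 125 µg/kg every hour for 4 injections, and the libraries carry the time label 5H. The design note instead times sampling from the initial injection, at 1 hour, so the time since injury is known here only as that label. The labels name no mock injection for the untreated mice, so injection itself and caerulein cannot be told apart, and they do not state the sex.

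Cells leave quiescence when D-type cyclins with CDK4 or CDK6, and then cyclin E with CDK2, phosphorylate the retinoblastoma family of proteins and free E2F factors, which switch on genes for DNA synthesis. Before S phase the origin recognition complex, CDC6 and CDT1 load the ring of MCM2 to MCM7 onto DNA, which is called licensing, and geminin blocks reloading until the next division. In the adult pancreas acinar cells divide rarely, and regeneration after caerulein is known to take days, through a re-entry of acinar cells into the cycle.

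Library totals ran from 14223190 to 26537091 counted reads. Acinar enzyme transcripts summed to 442900 to 482600 CPM (reads over the library total, times 1e+06) in the untreated mice and to 350200 to 371700 after caerulein, and ductal markers summed to 138 to 202.1 and to 278.1 to 391.5. In whole tissue, fewer cells of a type and less RNA per cell cannot be told apart. Young untreated mouse 2 stood apart from every other library. Its 10 B cell and plasma cell markers summed to 262.7 CPM, against 0.08464 and 0.08553 in the other young untreated mice, 2.145 to 2.939 in aged untreated, 0.1466 to 0.5064 in young caerulein and 4.429 to 5.051 in aged caerulein mice. Each of the 10 was highest in that library, and 5 of them had no read in any young caerulein mouse. Its 10 T and NK cell markers summed to 121.6 CPM against at most 1.394 elsewhere, 6 of them with no read in young caerulein mice. The sums of lymph node stroma, fat and red cell markers were also highest there. So were those of myeloid (292.3 CPM against at most 78.13 elsewhere), stellate and fibroblast (327.6 against 205.7) and endothelial markers (131.3 against 56.82). Ccnd1, Ccnd2, Ccnd3, Ccne2, Cdk2, Cdk4, Cdk6, Mcm7, Mki67, Top2a, Ccna2, Cdc20 and Plk1 overlap a gene on the other strand, Cdt1, Mcm7, Rrm1 and Top2a overlap 1 or more on the same strand, and Ccnd3, Pcna, Tyms, Ccnb1 and Ccnb2 have pseudogenes in the table, so reads of such pairs may be shared. Results are given with all libraries and without young untreated mouse 2. The part of these transcripts in any result was not tested beyond that.

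The DNA just before the start of 5 members is shown because these genes carry the contrasts below: Mcm5 fell after caerulein, Mcm6 did not pass the test, Mcm7 was higher in young mice, and Cdk1 and Top2a are mitotic genes. Each is 250 bases before the RefSeq start (assembly GRCm38.p6, the mm10 build), read 5′ to 3′ on the gene's strand. Capitals mark matches on either strand to the E2F words TTTCCCGC, TTTGGCGC, TTTCGCGC and TTTGCCGC, or to the CHR words TTTGAA and TTCGAA, and words may overlap. E2F sites and the cell cycle genes homology region (CHR) are elements through which E2F and DREAM complexes are known to act on cell cycle genes.
Mcm5: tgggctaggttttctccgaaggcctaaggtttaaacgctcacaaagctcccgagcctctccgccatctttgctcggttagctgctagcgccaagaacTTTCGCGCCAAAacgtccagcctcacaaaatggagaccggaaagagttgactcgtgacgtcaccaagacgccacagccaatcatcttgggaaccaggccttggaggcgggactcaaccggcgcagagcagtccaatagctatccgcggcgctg
Mcm6: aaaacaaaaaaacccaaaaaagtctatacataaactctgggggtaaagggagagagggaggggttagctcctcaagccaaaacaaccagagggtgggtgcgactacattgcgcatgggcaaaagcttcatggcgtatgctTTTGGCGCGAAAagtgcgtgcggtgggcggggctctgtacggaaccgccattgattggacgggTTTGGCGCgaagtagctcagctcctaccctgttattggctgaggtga
Mcm7: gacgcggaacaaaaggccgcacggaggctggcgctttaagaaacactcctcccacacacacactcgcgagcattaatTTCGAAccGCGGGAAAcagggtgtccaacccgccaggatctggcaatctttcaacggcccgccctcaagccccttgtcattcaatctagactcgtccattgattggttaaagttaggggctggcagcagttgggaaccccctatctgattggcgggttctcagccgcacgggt
Cdk1: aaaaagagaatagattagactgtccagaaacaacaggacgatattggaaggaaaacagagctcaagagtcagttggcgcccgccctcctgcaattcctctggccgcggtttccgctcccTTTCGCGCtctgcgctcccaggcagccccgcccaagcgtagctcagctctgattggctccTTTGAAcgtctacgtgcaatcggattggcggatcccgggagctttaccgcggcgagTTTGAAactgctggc
Top2a: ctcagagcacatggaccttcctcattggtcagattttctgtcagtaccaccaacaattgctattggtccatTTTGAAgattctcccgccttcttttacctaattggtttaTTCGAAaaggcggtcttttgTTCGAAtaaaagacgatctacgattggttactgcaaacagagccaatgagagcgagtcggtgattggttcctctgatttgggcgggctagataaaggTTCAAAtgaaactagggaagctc
They lie at chr8:75109259-75109508 (plus strand), chr1:128359706-128359955, chr5:138171884-138172133, chr10:69352913-69353162 and chr11:99024190-99024439 (minus strand), and by the gene limits of the deposited table the Mcm7 stretch and the last bases of the Cdk1 stretch lie within the gene. Mcm5 held 2 overlapping E2F words, Mcm6 held 3, Mcm7 held 1 with 1 CHR word, Cdk1 held 1 with 2 CHR words, and Top2a held 4 CHR words and no E2F word. In windows from 250 bases before to 50 after the start, RefSeq gave 29 of the 36 members. An E2F word stood in 6 of 12 licensing windows and in 1 of 7 G1 windows, against 744 of 32851 windows of all genes (2.26%). A CHR word stood in 8 of 10 mitosis windows and in no G1 window, against 6316 of all windows (19.2%). Mcm5, Mcm6 and Mcm7 each held an E2F word, but Mcm7 has another RefSeq start, not shown, whose window held no word of either family.

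Per length, cyclin D2 and CDK4 were the most abundant members in all 4 groups. In the FPKM values the authors deposited (fragments per kilobase, scaled to depth), Ccnd2 averaged 6.29 ± 0.971 in young untreated mice (SD, n = 3), 5.37 in aged untreated, 7.40 in young caerulein and 5.52 in aged caerulein mice. Cdk4 averaged 5.92 ± 0.879 FPKM (SD, n = 3), 6.64, 4.79 and 5.24 in the same order. The 2 neighbours did not differ beyond their spread in young untreated mice, and in the aged untreated mice their order was the reverse. Pcna followed in every group, at 4.37, 4.41, 2.28 and 3.24 FPKM. Cyclin D1 (2.48 ± 0.862 FPKM, SD, n = 3) and cyclin D3 (2.12 ± 0.294) did not differ beyond their spread in young untreated mice. Without young untreated mouse 2 they averaged 2.04 and 1.97 FPKM. In aged untreated mice their order was the reverse, at 2.06 and 2.25 FPKM. Both were under 1 FPKM after caerulein, at 0.767 and 0.924 in young mice. Mcm7 and Rrm2 followed Pcna after caerulein, at 1.87 and 1.69 FPKM in young mice, whereas Mcm2 stood at 0.311 FPKM.

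After caerulein some members were called lower at both ages with all libraries. They were the cyclins D1 and D3, the kinases CDK6 and CDK1, E2F1, MCM2, MCM4, MCM5, geminin, the ribonucleotide reductase subunit RRM1, topoisomerase II alpha and the inhibitor p27. The share of all genes lower at both ages was not counted, so this list has no background beside it. The aged Top2a call was lost in 7 of 19 alternatives. Cdk1 had too few reads to be tested without young untreated mouse 2, so its place in this list was not checked without that library. In the young mice 28 members had enough reads to be tested, and 1 was higher (Mcm7) and 18 were lower, where 27.5% of all genes were higher and 24.7% lower. Calls are adjusted p-values below 0.05 in the quasi-likelihood test of edgeR, with Benjamini and Hochberg's adjustment across the 14113 genes that had enough reads. The median log2 fold change of the tested members was -1.25, against -0.06 over all genes tested. In the aged mice 1 was higher (Rrm2) and 13 were lower, where 27% of all genes were higher and 21.2% lower, with a median of -1.14 against 0.07. Members that passed the read filter through a high group had to differ, so these medians are descriptions of the members tested. With young untreated mouse 2 left out, 26 members were tested, and 1 was higher and 15 lower in young mice (30.8% and 26.8% of all genes), and 1 higher and 17 lower in aged mice (30.7% and 27.6%). These values rest on TMM scaling, which sets most genes near no change, so a change is relative to most other genes. With scaling to library totals the median of all genes moved to 0.433 in young and 0.689 in aged mice, and the members split into 2 higher and 11 lower in young mice (37.7% and 8.99% of all genes) and 2 higher and 6 lower in aged mice (38.6% and 7.61%). The young members still lower were Ccnd1, Ccnd3, E2f1, Mcm2, Mcm4, Mcm5, Gmnn, Mki67, Top2a, Cdk1 and Aurka, the aged ones Ccne1, E2f1, Mcm2, Mcm5, Gmnn and Cdk1, and the higher ones Ccnd2 at both ages, Mcm7 in young and Rrm2 in aged mice. Under library totals without young untreated mouse 2, the median of all genes was 0.79 in young and 0.70 in aged mice. In that setting 52.9% and 48.9% of all genes were higher, so its signs and calls below include that shift. Across all 36 members, the untested ones included, every caerulein library lay below every untreated one for 22 in young and 23 in aged mice, which was so for 26.5% and 33.4% of all genes tested. Levels are TMM-scaled CPM, given for mice 1 to 3 in order (2 and 3 for aged untreated), and each log2 fold change carries its SE. The 8 members with too few reads for the test were Ccna2, Ccnb1, Ccnb2, Plk1, Aurkb, Bub1, Birc5 and Cdkn2a.

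**Figure D1:**
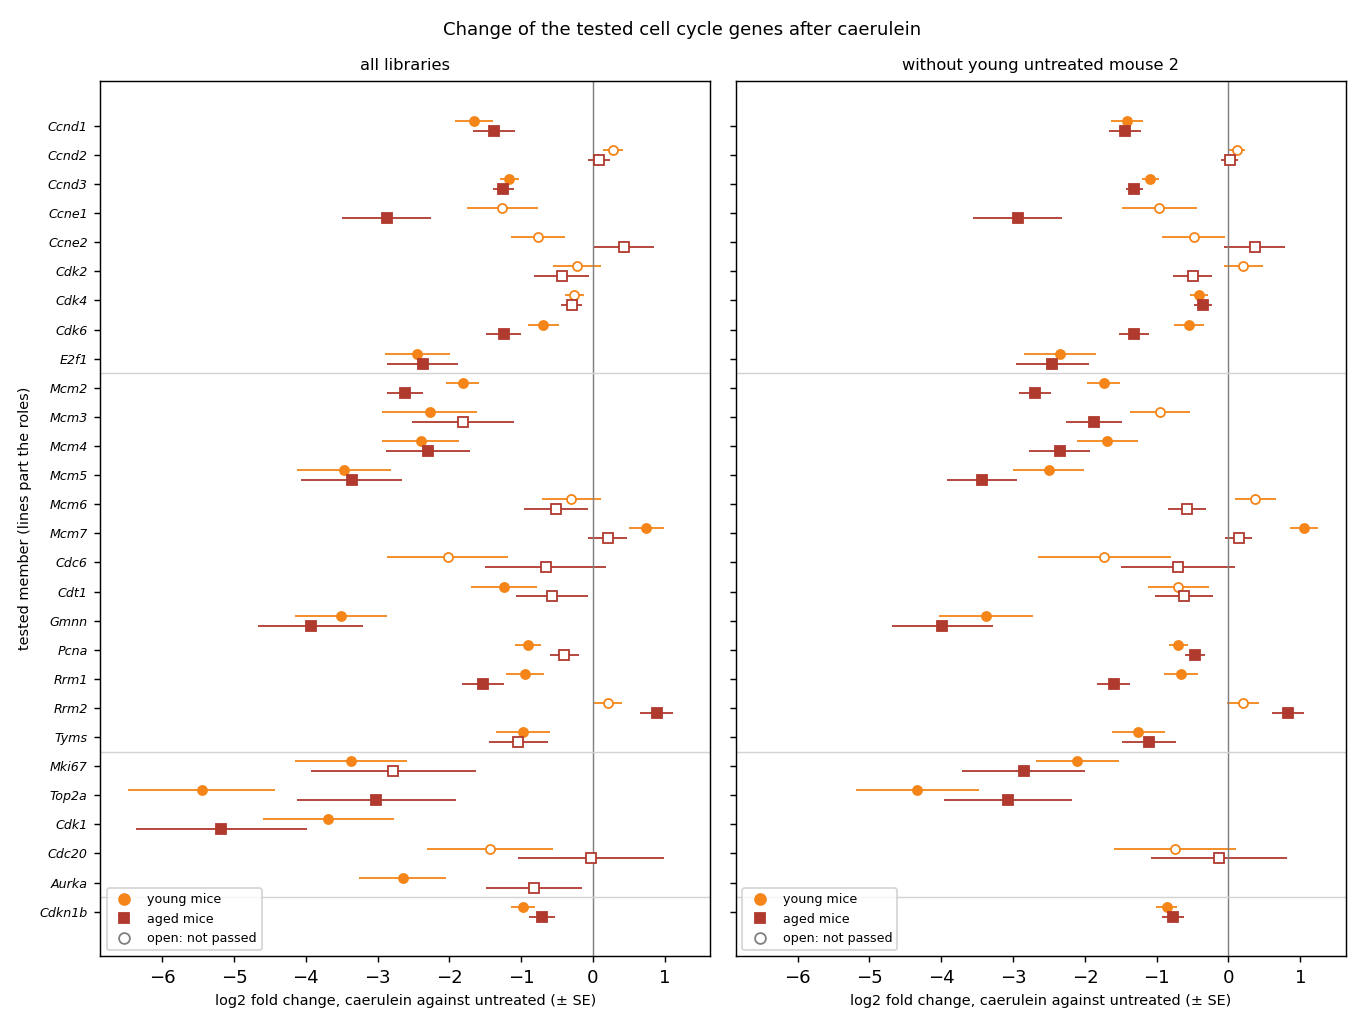
Log2 fold change ± SE after caerulein for each tested member (vertical axis, lines part the roles), young mice as circles and aged mice as squares, with all libraries on the left and without young untreated mouse 2 on the right. Filled symbols passed an adjusted p of 0.05 and open ones did not; most symbols lie left of 0, while Mcm7 in young mice (0.74) and Rrm2 in aged mice (0.89) lie right of it.

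Among the G1 genes the 3 D cyclins parted. Ccnd1 (chr7:144929931-144939925, mm10), the cyclin that mitogens induce, stood at 11.4, 16.1 and 7.65 CPM in young untreated, 10 and 9.26 in aged untreated, 3.7, 3.67 and 3.74 in young caerulein and 3.86, 2.63 and 4.61 in aged caerulein mice. All 6 caerulein libraries were below all 5 untreated libraries. The log2 fold change was -1.66 ± 0.27 in young mice (adjusted p = 0.000346, edgeR) and -1.38 ± 0.29 in aged mice (adjusted p = 0.00233), and without young untreated mouse 2, the highest library, it was -1.41 and -1.45. Ccnd3 (chr17:47505051-47599691), another partner of CDK4 and CDK6, stood at 18.2, 21.7 and 16.1 CPM in young and 20.7 and 18.5 in aged untreated mice, and at 7.97, 8.61 and 8.37 in young and 8.59, 7.55 and 8.55 in aged caerulein mice. Its groups did not overlap either, and it fell by 1.16 ± 0.13 (adjusted p = 2.52e-05) and by 1.25 ± 0.14 on the log2 scale (adjusted p = 3.52e-05).

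Ccnd2 (chr6:127125162-127152193) did not follow them, at 61, 49.8 and 66.2 CPM in young untreated, 48.8 and 51.5 in aged untreated, 65.8, 70.7 and 77.9 in young caerulein and 59.4, 45.2 and 54.8 in aged caerulein mice. The treated and untreated libraries overlapped at both ages. The log2 fold change was 0.28 ± 0.14 in young mice (95% interval 0.001 to 0.552, adjusted p = 0.119) and 0.08 ± 0.16 in aged mice (-0.227 to 0.394, adjusted p = 0.7), and with library totals it was called higher at both ages (0.80 and 0.70). The read ratio of Ccnd1 to Ccnd2 within a library, which no scaling touches, ran from 0.116 to 0.322 in untreated and from 0.0481 to 0.084 in caerulein mice. An exact permutation test of the treatment labels within each age, two-sided, gave an adjusted p of 0.00909 over 20 ratios, from the smallest p it can give (0.005). Ccnd1 to Ccnd3 ran from 0.477 to 0.742 and from 0.348 to 0.539, which overlapped (adjusted p = 0.106).

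**Figure D2:**
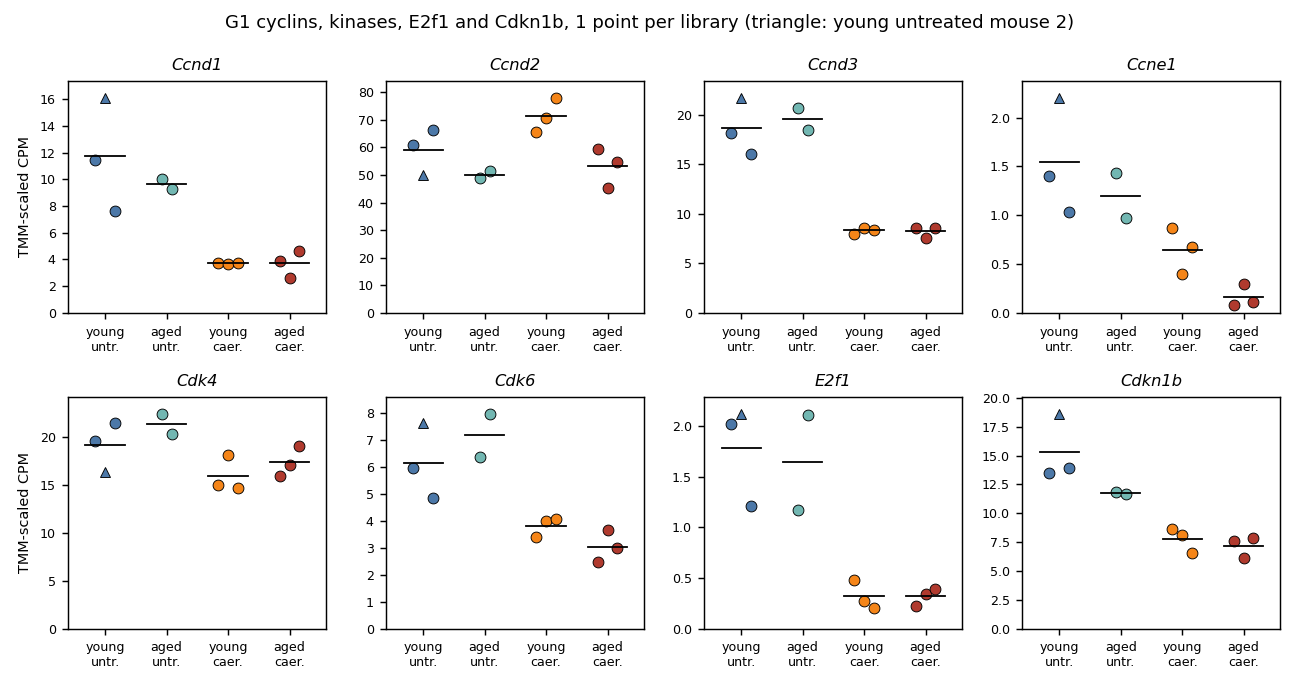
TMM-scaled CPM of 8 genes of G1 and its inhibition by group, 1 point per library, with the group mean as a line and young untreated mouse 2 as a triangle. The caerulein points of Ccnd1, Ccnd3, E2f1 and Cdkn1b lie under all untreated points, while those of Ccnd2 overlap them.

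E2f1 (chr2:154559407-154569892), the transcription factor that the retinoblastoma protein holds back, stood at 2.02, 2.12 and 1.21 CPM in young and 1.18 and 2.11 in aged untreated mice, and at 0.479, 0.277 and 0.208 in young and 0.229, 0.341 and 0.389 in aged caerulein mice. Every caerulein library was below every untreated one. It fell by 2.45 ± 0.45 in young (adjusted p = 0.000977) and by 2.37 ± 0.49 on the log2 scale in aged mice (adjusted p = 0.0021), and both calls held in all 21 alternatives run. Ccne1, cyclin E1, stood at 1.41, 2.2 and 1.04 CPM in young untreated, 1.43 and 0.975 in aged untreated, 0.871, 0.395 and 0.676 in young caerulein and 0.0764, 0.292 and 0.111 in aged caerulein mice. The aged caerulein mice were the lowest, under all other libraries, and the fall of 2.87 ± 0.62 passed there (adjusted p = 0.00268). In young mice the log2 fold change was -1.26 ± 0.50 (adjusted p = 0.0528), and the difference between the ages did not pass, as for every member. Ccne2 did not pass in either age (-0.77 and 0.43).

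Of the kinases, Cdk6 stood at 5.96, 7.63 and 4.83 CPM in young and 6.39 and 7.96 in aged untreated mice, and at 3.4, 3.99 and 4.05 in young and 2.48, 3.65 and 3.0 in aged caerulein mice. The treated libraries were all below the untreated ones, with log2 fold changes of -0.69 ± 0.22 (adjusted p = 0.0208) in young and -1.24 ± 0.24 (adjusted p = 0.00143) in aged mice. The young value changed sign, to 0.22, without young untreated mouse 2 under library totals, where the median of all genes was 0.79. Cdk4 did not pass with all libraries (-0.26 ± 0.13 and -0.30 ± 0.15). Without young untreated mouse 2 it passed at both ages (-0.41, adjusted p = 0.0108, and -0.36, adjusted p = 0.0233), and under library totals with all libraries its sign turned (0.27 and 0.32, neither called). Cdk2, the partner of cyclin E, did not pass (-0.23 and -0.44), and young untreated mouse 2 held its highest level, 6.23 CPM. When that library was left out the young value turned to 0.21 (adjusted p = 0.541), and under library totals as well Cdk2 was called higher (0.99, adjusted p = 0.00691). In that last setting the median of all genes was itself 0.79, and 52.9% of all genes were called higher.

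The 6 MCM subunits, which form 1 ring in equal parts, did not move together at the transcript level. Mcm2, Mcm4 and Mcm5 fell at both ages, Mcm3 fell in young mice with all libraries, Mcm6 did not pass with all libraries, and Mcm7 was higher in young mice. Mcm2 (chr6:88883474-88898780) stood at 7.42, 9.07 and 6.91 CPM in young untreated, 11.5 and 14.9 in aged untreated, 1.87, 2.49 and 2.29 in young caerulein and 1.53, 2.58 and 2.39 in aged caerulein mice. The aged untreated mice were the highest and all caerulein libraries lay at or below 2.58 CPM. The log2 fold changes were -1.81 ± 0.23 (adjusted p = 5.92e-05) and -2.62 ± 0.25 (adjusted p = 8.13e-06), and -1.74 and -2.69 without young untreated mouse 2. Mcm5 (chr8:75109569-75128439) stood at 1.91, 6.79 and 1.44 CPM in young and 2.94 and 3.3 in aged untreated mice, and at 0.349, 0.158 and 0.416 in young and 0.267, 0.146 and 0.50 in aged caerulein mice. No caerulein library reached the lowest untreated one. It fell by 3.47 ± 0.66 in young (adjusted p = 0.00119) and by 3.36 ± 0.70 in aged mice (adjusted p = 0.00224), and without young untreated mouse 2 the young fall was 2.5 (adjusted p = 0.000646). That library held 4.06 times the mean Mcm5 level of the other young untreated mice, 1.27 times for Mcm2 and 1.81 times for Mcm7.

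Mcm4 fell by 2.40 ± 0.54 in young (adjusted p = 0.0033) and by 2.29 ± 0.58 in aged mice (adjusted p = 0.00709), from 2.3, 7.03 and 2.36 CPM in young untreated mice to 1.18, 0.711 and 0.312 in young caerulein mice, and from 3.28 and 3.68 to 0.955, 0.585 and 0.555 in aged mice. Without young untreated mouse 2 the young fall was 1.69 (adjusted p = 0.0037). Mcm3 depended on that library, at 1.01, 7.35 and 1.55 CPM in young untreated, 3.11 and 3.14 in aged untreated, 0.653, 0.395 and 1.04 in young caerulein and 0.84, 0.828 and 0.999 in aged caerulein mice. Young untreated mouse 2 stood at 5.73 times the mean of the other young untreated mice. With it, the young change was -2.27 ± 0.66 (adjusted p = 0.014) and the aged change -1.81 ± 0.71 (adjusted p = 0.0537). Without it, the young change was -0.95 (adjusted p = 0.0684) and the aged change -1.88 (adjusted p = 0.000922).

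Mcm6 stood at 2.64, 7.71 and 2.65 CPM in young and 6.3 and 6.28 in aged untreated mice, and at 4.01, 2.33 and 4.37 in young and 3.74, 5.6 and 3.89 in aged caerulein mice. Treated and untreated libraries overlapped at both ages, and neither change passed (-0.30 ± 0.41 and -0.51 ± 0.45, with 0.37 and -0.58 without young untreated mouse 2). Mcm6 was called lower in aged mice in a fit of only the groups compared (-0.60, adjusted p = 0.0348), and higher in young mice without young untreated mouse 2 under library totals (1.15, adjusted p = 0.00323). The median of all genes in the latter setting was 0.79, and 52.9% of all genes were called higher. Mcm7 stood at 4.05, 7.15 and 3.86 CPM in young untreated, 6.64 and 6.28 in aged untreated, 8.97, 8.18 and 8.26 in young caerulein and 8.13, 5.51 and 8.66 in aged caerulein mice. All young caerulein libraries were above all young untreated ones, by 0.74 ± 0.24 on the log2 scale (adjusted p = 0.0249) or by 1.05 without young untreated mouse 2 (adjusted p = 0.000421). The young call was lost in 6 of 21 alternatives, the highest adjusted p being 0.0845, and the aged change did not pass (0.20 ± 0.28). The Mcm7 gene (chr5:138164583-138172422, mm10) overlaps Cops6 and Ap4m1 on the other strand and holds the microRNA genes Mir106b, Mir25 and Mir93, and the strand setting of the counting is not given in the sources used here.

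Ratios of reads within a library gave the same split without any scaling. Mcm2 to Mcm7 stood at 1.83, 1.27 and 1.79 in young and 1.73 and 2.37 in aged untreated mice, and at 0.209, 0.304 and 0.277 in young and 0.188, 0.469 and 0.276 in aged caerulein mice. Every untreated library had more Mcm2 than Mcm7 reads, and every caerulein library fewer. Mcm5 to Mcm6 ran from 0.467 to 0.881 in untreated and from 0.0261 to 0.129 in caerulein mice. All 8 ratios of Mcm2, Mcm3, Mcm4 or Mcm5 over Mcm6 or Mcm7 were lower after caerulein by the exact permutation test (adjusted p = 0.00909, or 0.0167 without young untreated mouse 2, from the smallest p each design can give, 0.005 and 0.01). Mcm2 to Mcm3, Mcm2 to Mcm4 and Mcm3 to Mcm4 did not pass (adjusted p = 0.437, 0.715 and 0.333). Mcm2 to Mcm5 passed with all libraries (0.0429) and not without young untreated mouse 2 (0.138). Mcm5 fell further than Mcm3 (adjusted p = 0.0167 with and without that mouse), and its ratio to Mcm4 did not pass (0.112). Mcm6 to Mcm7 passed with all libraries (0.0467) and not without young untreated mouse 2 (0.0857). These permutation tests are exact and two-sided over 11 or 10 libraries.

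**Figure D3:**
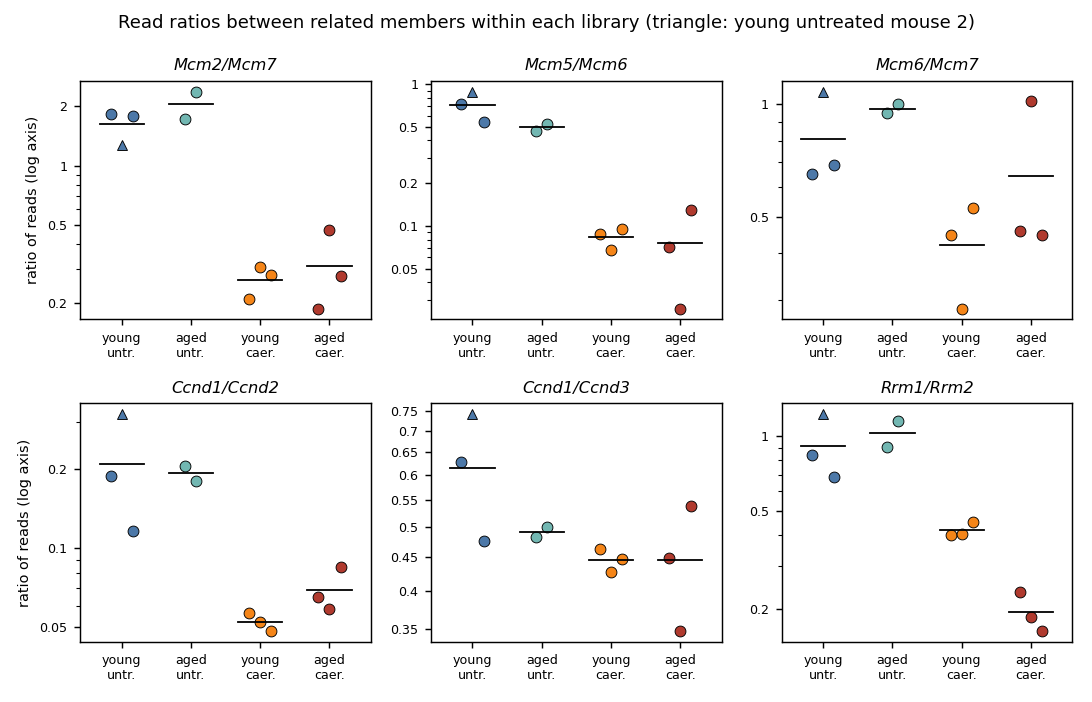
Ratio of reads of 2 members within each library on a log axis, by group, with the group mean as a line and young untreated mouse 2 as a triangle. Mcm2 over Mcm7, Mcm5 over Mcm6, Ccnd1 over Ccnd2 and Rrm1 over Rrm2 part treated from untreated libraries with no overlap, while Ccnd1 over Ccnd3 and Mcm6 over Mcm7 overlap.

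Of the 3 factors around MCM loading, geminin had the largest fold change. Gmnn (chr13:24751845-24761923) stood at 1.8, 2.12 and 1.27 CPM in young untreated, 1.43 and 1.52 in aged untreated, 0.261, 0.119 and 0.052 in young caerulein and 0.115, 0.146 and 0 in aged caerulein mice. Each caerulein library was at or below 0.261 CPM and each untreated one at or above 1.27 CPM. It fell by 3.51 ± 0.64 in young (adjusted p = 0.000925) and by 3.93 ± 0.73 on the log2 scale in aged mice (adjusted p = 0.000998). Gmnn passed the read filter only through untreated libraries, where it is high, so these p-values are descriptive. Pooled reads gave a ratio of untreated to young caerulein of 12 (exact 95% interval 6.28 to 25.7), and of 10.4 (5.23 to 22.8) without young untreated mouse 2. Cdt1, the loader that geminin binds, fell in young mice with all libraries (-1.24 ± 0.46, adjusted p = 0.0415), but did not pass without young untreated mouse 2 (-0.70, adjusted p = 0.179), where library totals turned the value to 0.07. The young call was lost in 13 of 21 alternatives and reversed in 1. In aged mice it did not pass (-0.57). Cdc6, which recruits the ring to origins, was at or below 0.672 CPM in every library and did not pass (-2.02 ± 0.85, adjusted p = 0.0645, and -0.66).

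The 2 subunits of ribonucleotide reductase, which makes the deoxynucleotides for DNA, went separate ways. Rrm1, the large subunit, stood at 2.98, 5.4 and 3.11 CPM in young and 4.12 and 4.55 in aged untreated mice, and at 2.22, 2.02 and 1.72 in young and 1.53, 1.51 and 1.44 in aged caerulein mice. It fell by 0.95 ± 0.26 in young (adjusted p = 0.011; 0.66 without young untreated mouse 2, and turned to 0.12 when library totals were used as well) and by 1.53 ± 0.29 in aged mice (adjusted p = 0.00125). Rrm2 (chr12:24708241-24714146), the small subunit, stood at 3.54, 4.4 and 4.55 CPM in young untreated, 4.54 and 3.95 in aged untreated, 5.58, 5.02 and 3.79 in young caerulein and 6.49, 8.19 and 8.88 in aged caerulein mice. All aged caerulein libraries were above all others, with a log2 fold change of 0.89 ± 0.23 (adjusted p = 0.00776), which without aged untreated mouse 3 was 0.81 (adjusted p = 0.0742). In young mice it was 0.21 ± 0.20 (adjusted p = 0.406). The read ratio Rrm1 to Rrm2 ran from 0.684 to 1.23 in untreated and from 0.163 to 0.452 in caerulein mice (exact permutation test, adjusted p = 0.00909).

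PCNA, the sliding clamp of the polymerases, stood at 8.32, 13.8 and 9.32 CPM in young and 10.3 and 10.7 in aged untreated mice, and at 5.53, 6.24 and 5.09 in young and 7.98, 7.75 and 8.1 in aged caerulein mice. In young mice it fell by 0.90 ± 0.18 (adjusted p = 0.00179; 0.70 without young untreated mouse 2, turned to 0.08 with library totals as well), and the young groups did not overlap. In aged mice it was -0.40 ± 0.20 (adjusted p = 0.125), and -0.47 without young untreated mouse 2 (adjusted p = 0.00915). Tyms, thymidylate synthase, was called lower in young mice (-0.98 ± 0.37, adjusted p = 0.0469) but the call was lost in 13 of 21 alternatives, and in aged mice it was -1.04 ± 0.41 (adjusted p = 0.0581). Leaving out young untreated mouse 2, Tyms passed at both ages (-1.25, adjusted p = 0.00933, and -1.11, adjusted p = 0.0201).

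The mitotic genes had few reads, and most of those in untreated mice came from young untreated mouse 2. Summed over the 12 genes the level was 7.19, 32.1 and 7.25 CPM in young untreated, 3.28 and 4.06 in aged untreated, 1.0, 2.21 and 1.56 in young caerulein and 0.878, 1.17 and 1.28 in aged caerulein mice. That library held 804 of the reads of these genes, against 128 and 126 in the other young untreated mice, 39 and 75 in aged untreated and 23 to 56 in the caerulein mice. It is the library with the B cell, T cell, node, fat, myeloid, stromal and endothelial transcripts given above. Without it the other untreated libraries still lay above all caerulein libraries, at 3.28 to 7.25 against 0.878 to 2.21 CPM.

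**Figure D4:**
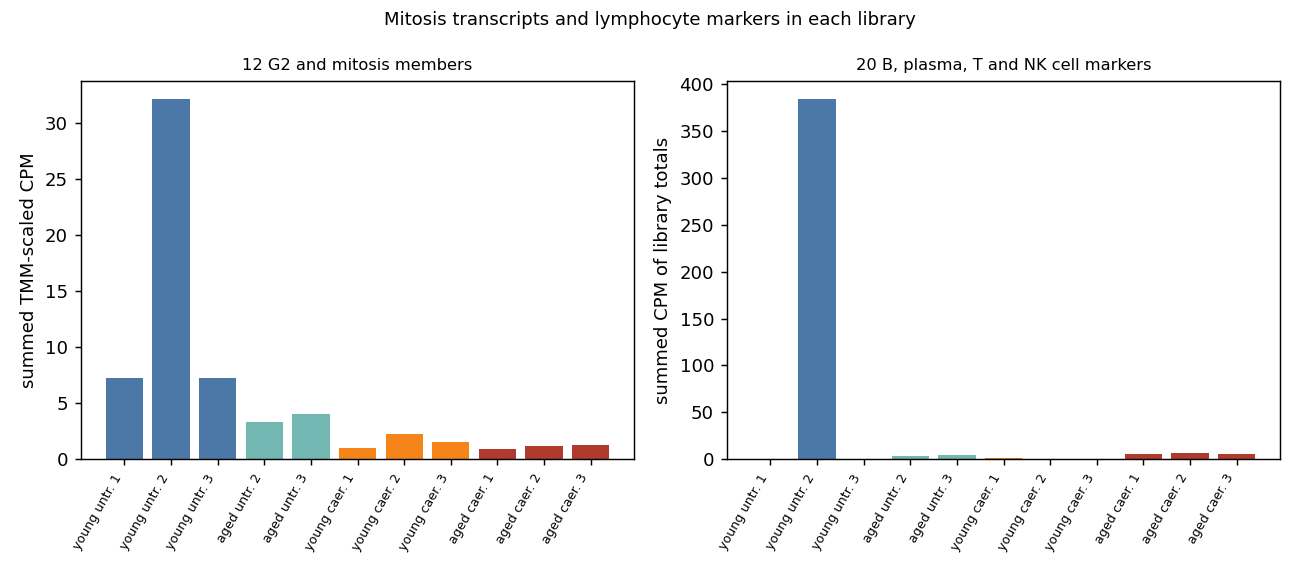
Bars per library of the summed TMM-scaled CPM of the 12 mitotic genes, and of the summed CPM of 20 B, plasma, T and NK cell markers. Young untreated mouse 2 has the highest bar in both, at 32.1 CPM for the mitotic genes.

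Mki67 (chr7:135689784-135716361), which encodes the proliferation marker Ki-67, stood at 2.02, 10.2 and 1.73 CPM in young and 0.252 and 0.65 in aged untreated mice, and at 0.305, 0.474 and 0.572 in young and 0, 0.146 and 0.0555 in aged caerulein mice. Young untreated mouse 2 was the highest by far, and the groups did not overlap at either age. In young mice it fell by 3.37 ± 0.78 (adjusted p = 0.00389), and by 2.10 without young untreated mouse 2 (adjusted p = 0.00687). The aged change did not pass with all libraries (-2.78 ± 1.15, adjusted p = 0.0668) and passed without that mouse (-2.85, adjusted p = 0.0108). Top2a (chr11:98992943-99024189), which untangles DNA before mitosis, had 23, 184 and 32 reads in young untreated, 10 and 13 in aged untreated, 4, 0 and 1 in young caerulein and 5, 0 and 1 in aged caerulein mice. Its groups did not overlap either. Top2a passed the read filter only through untreated libraries, where it is high, so its p-values are descriptive. It fell by 5.45 ± 1.03 in young (adjusted p = 0.0011; 4.33 without young untreated mouse 2) and by 3.02 ± 1.11 in aged mice (adjusted p = 0.0422), where the call was lost in 7 of 19 alternatives. Pooled reads gave ratios of untreated to caerulein of 21.1 in young mice without young untreated mouse 2 (exact 95% interval 8.52 to 67.6) and of 8.17 in aged mice (3.23 to 24.5).

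Cdk1, the kinase of mitotic entry, had 8, 46 and 12 reads in young and 12 and 10 in aged untreated mice, and 0, 4 and 1 in young and 1, 0 and 0 in aged caerulein mice. Every untreated library had more reads than any caerulein library. The edgeR fit with all libraries put the fall at 3.68 ± 0.91 in young (adjusted p = 0.00576) and 5.18 ± 1.20 in aged mice (adjusted p = 0.00407). With 1 read in the aged caerulein mice the pooled ratio was 46.9, with an interval of 7.58 to 1940. Aurka, a spindle kinase, fell in young mice by 2.65 ± 0.60 (adjusted p = 0.00351) and did not pass in aged mice (-0.82). Neither Cdk1 nor Aurka was tested without young untreated mouse 2, where both had too few reads. Aurka entered the test through that library, its highest, so its call depends on it and is not read as support for a fall. Cdk1 was near the read limit and passed it through untreated libraries of both ages, where it is high. Its p-values are therefore descriptive, and its aged change compares groups that do not hold that mouse. Without young untreated mouse 2, pooled read ratios of untreated to young caerulein were 7.68 (2.8 to 26.2) for Cdk1 and 4.48 (2.21 to 9.67) for Aurka. These exact intervals cover counting error only. Cdc20, an activator of the anaphase-promoting complex, did not pass (-1.43 and -0.03).

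The 7 untested mitotic genes were read mainly in young untreated mouse 2. Birc5 (survivin) had 4, 38 and 3 reads in young untreated, 0 and 3 in aged untreated, 1, 0 and 1 in young caerulein and 0, 0 and 2 in aged caerulein mice. Bub1, a spindle checkpoint kinase, had 19 reads there, 0 and 1 in the other young untreated mice and none in any caerulein mouse, so that the pooled level was at least 7.48-fold lower in the young caerulein mice (against a floor of 3 reads over the group). That bound rests on young untreated mouse 2, without which 1 untreated read gives no bound. Without young untreated mouse 2, pooled read ratios of untreated to young caerulein were 8.96 (2.5 to 48.6) for Plk1, 7.68 (1.53 to 74.2) for Ccnb1, 6.72 (1.28 to 66.3) for Birc5, 5.12 (1.23 to 30) for Aurkb, 2.49 (1.01 to 6.36) for Ccna2 and 2.69 (0.734 to 10.7) for Ccnb2. These exact 95% intervals cover counting error only, and that of Ccnb2 includes 1. In aged mice the 6 intervals all included 1, with ratios from 1.07 (0.0964 to 7.44) for Ccnb1 to 6.39 (0.513 to 336) for Aurkb.

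Of the inhibitors, Cdkn1b (p27, which holds cyclin E and CDK2 in check) stood at 13.5, 18.6 and 13.9 CPM in young and 11.8 and 11.7 in aged untreated mice, and at 8.67, 8.1 and 6.6 in young and 7.6, 6.14 and 7.88 in aged caerulein mice. Caerulein libraries were all below untreated ones. It fell by 0.98 ± 0.16 in young (adjusted p = 0.000515) and by 0.71 ± 0.18 on the log2 scale in aged mice (adjusted p = 0.00829), and both calls were lost under library totals (-0.52 and -0.09). Cdkn2a, which encodes p16 and ARF, had 9 reads in young untreated mouse 2 and none in the other 10 libraries, the aged ones included.

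Between the ages, no member passed in untreated mice (0 higher and 0 lower by edgeR, where 0.0567% and 0.0354% of all genes were called; 3 members had an unadjusted p below 0.05). DESeq2 called 1 lower, Mki67 (-3.32, adjusted p = 0.0452). With young untreated mouse 2 left out edgeR called 0 as well (0.258% and 0.147% of all genes; 6 members with an unadjusted p below 0.05). In that comparison both aged untreated libraries lay above both remaining young ones for 12 of the 36 members, among them all 6 MCM genes, Cdt1, Pcna and Rrm1, where 20.9% of tested genes did so. They lay below for 7 members, which were Mki67, Top2a, Plk1, Aurkb, Birc5, Ccnd2 and Cdkn1b. This count is near the share of tested genes that did so (20.1%), so it is not read as a result about the members. Both counts cover all 36 members, the untested Plk1, Aurkb and Birc5 included, while the shares cover tested genes only. With young untreated mouse 2 kept, the aged untreated libraries lay above all young ones for 1 member and below for 6. The shares of all genes for that order were not counted. The count of 12 thus depends on leaving that mouse out, and it is not read as an age difference. The MCM differences were 0.57 to 1.27 on the log2 scale, with Mcm2 at 0.88 (adjusted p = 0.217) and Mcm6 at 1.24 (adjusted p = 0.188), and Mki67 was at -1.98 (adjusted p = 0.439).

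After caerulein no member passed between aged and young mice with all libraries (0 higher and 0 lower by edgeR, where 2.46% and 1.27% of all genes were called; 6 members had an unadjusted p below 0.05), and DESeq2 called 1 higher, Rrm2 (0.71). When young untreated mouse 2, which belongs to neither group, was left out, edgeR called 2 higher and 3 lower of 26 tested. These were 7.69% and 11.5% of the tested members, against 7.85% and 6.31% of all genes. The higher count is near the share of all genes and the lower one rests on 3 members. Neither count is read as a result about the members. Rrm2 (0.68, adjusted p = 0.0267) and Pcna (0.47, adjusted p = 0.0227) were higher in aged mice. Ccnd2 (-0.45, adjusted p = 0.0133), Ccne1 (-2.02, adjusted p = 0.035) and Mki67 (-2.73, adjusted p = 0.0307) were lower. With all libraries their values were 0.71, 0.50, -0.43, -1.99 and -2.71, with adjusted p from 0.077 to 0.193. The difference between the caerulein responses of aged and young mice passed for no member (0 higher and 0 lower by edgeR, against 0.00709% of all genes in each direction; 2 members, Mcm2 and Rrm2, had an unadjusted p below 0.05; 0 of the 13 to which DESeq2 gave an adjusted p), nor without young untreated mouse 2 (1.48% and 0.811% of all genes; 6 unadjusted).

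Of 110 other cell cycle genes, more were lower than higher after caerulein under TMM scaling. In young mice 6 were higher and 50 lower of 87 tested, where 27.5% and 24.7% of all genes were, with a median log2 fold change of -1.24. Under library totals 9 were higher and 23 lower (37.7% and 8.99% of all genes). In aged mice 7 were higher and 30 lower (27% and 21.2% of all genes), with a median of -1.01, or 11 and 8 under library totals (38.6% and 7.61%). Leaving out young untreated mouse 2, 9 were higher and 39 lower of 73 tested in young mice (30.8% and 26.8% of all genes) and 9 and 34 in aged mice (30.7% and 27.6%). Of the 25 tested genes of the replication fork, 20 were lower and 0 higher in young mice, where 24.7% of all genes were lower (9 lower under library totals, 21 by DESeq2), and 12 were lower in aged mice, where 21.2% were (2 lower and 1 higher under library totals). Of the 23 tested without young untreated mouse 2, 15 were lower in young and 14 in aged mice (26.8% and 27.6% of all genes). Rfc3, a subunit of the clamp loader, went from 1.29 ± 0.46 to 0.0714 CPM in young mice (-4.04 ± 0.58, adjusted p = 0.00016). Rfc3 passed the read filter only through untreated libraries, where it is high, so that p-value is descriptive. Rpa1, which coats single-stranded DNA, fell by 1.64 ± 0.25 in young mice (adjusted p = 0.000226).

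Among the E2F, pocket protein and DREAM genes 1 was higher and 10 lower of 16 tested in young mice (27.5% and 24.7% of all genes), and 1 and 8 in aged mice (27% and 21.2%). Rbl2 (p130), the pocket protein of quiescent cells, stood at 15.6, 17.8 and 17.1 CPM in young untreated, 15.3 and 12.6 in aged untreated, 2.27, 1.58 and 1.82 in young caerulein and 1.45, 1.61 and 2.22 in aged caerulein mice. It fell by 3.16 ± 0.19 (adjusted p = 2.92e-07) and by 2.99 ± 0.21 (adjusted p = 1.03e-06). E2f4, the E2F that p130 binds in the DREAM complex, rose by 1.15 ± 0.12 (adjusted p = 1.18e-05) and 1.40 ± 0.14 (adjusted p = 1.01e-05), from 7.76, 9.59 and 8.17 CPM in young untreated mice to 19.3, 18.6 and 18.8 in young caerulein mice, and from 8.23 and 8.99 to 22.6, 21 and 24.7 in aged mice. Rbl1 (p107) fell by 2.54 in young mice (adjusted p = 0.00475; 1.47 without young untreated mouse 2) and by 2.04 in aged mice (adjusted p = 0.022), whereas Rb1 did not pass (-0.01, adjusted p = 0.965, and 0.41, adjusted p = 0.173). Cdkn1a (p21) rose from 1.74, 2.8 and 1.44 CPM in young untreated mice to 301, 330 and 295 in young caerulein mice, and from 2.86 and 3.03 to 422, 346 and 393 in aged mice. Its treated libraries all lay at or above 295 CPM, so that p21 rose where p27 and p130, also known to restrain the cycle, fell. Foxm1, a factor for mitotic genes, was called lower in young mice with all libraries (-2.98, adjusted p = 0.0325) and had too few reads to be tested without young untreated mouse 2.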

How the data were processed

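Bulk polyadenylated RNA of 11 pancreata was sequenced as read pairs. According to the submitters' processing notes, the authors mapped reads to mm10 (HISAT2 2.0.5) and counted them by gene (featureCounts 1.5.0-p3). The sources used here do not give strand setting, annotation or read filters. The table they deposited holds raw read counts for 54532 genes, and the deposited FPKM values were used only to order members per length. The authors' comparison tables were not used.

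Genes were kept by filterByExpr (14113, or 13567 without young untreated mouse 2), scaled by TMM and fitted in 1 model of 4 groups in edgeR 4.0.16 under R 4.3.3, with quasi-likelihood tests and Benjamini-Hochberg adjustment across every tested gene. Depth ran from 14223190 to 26537091 reads, and counting intervals cover counting error only. On simulated counts for the young caerulein comparison (13515 genes) the fit recovered 50% of 100 genes changed by 1 and 86% of 100 changed by 2 on the log2 scale, with 8 false calls. The changed genes were drawn from those with a mean of at least 1 CPM, so these rates do not cover members under it.

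The numbers on the mice do not pair libraries. All members could be named; other cell cycle genes were limited to up to 3 per list with the smallest adjusted p, plus 7 regulators. Members and lists were chosen with earlier results of these data known. Alternatives were DESeq2 1.42.0, other scalings and filters, a replicate block, only the groups compared, and leaving out each library.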

Additional observations from a re-analysis of the deposited data

How the results depend on the processing

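Most values kept their direction: of the calls of single members, 600 alternative values stayed on their side of the threshold, 67 lost the call and 4 changed sign. Those 4 were young values without young untreated mouse 2 under library totals, a combination chosen after seeing the data: Cdk6 0.22, Cdt1 0.069, Pcna 0.084 and Rrm1 0.12. All 4 lay under the median of all genes in that setting, 0.79. Library totals gave 2 higher and 11 lower members in young and 2 higher and 6 lower in aged mice. Without young untreated mouse 2 as well, 26 members were tested, and 5 were higher and 6 lower in young mice. Of all 13567 genes tested there, 7175 (52.9%) were higher and 1078 lower. In aged mice that setting gave 3 higher and 13 lower members, where 6638 of all genes (48.9%) were higher and 1422 lower. Members higher in young mice were 0 in a fit of only the groups compared and 0 to 1 with each library left out in turn, and in aged mice 0 to 1, being 0 without aged untreated mouse 3. With only the groups compared, 26.2% of all genes were higher in young mice, and 24.5% to 30.8% with a young library left out. In aged mice 24.4% to 25.5% were higher with an aged caerulein library left out. Between untreated ages 1 member was lower with no filter (2.35% of all genes) and 1 by DESeq2 (0.191%). After caerulein, aged against young gave 1 lower with no filter (1.14% of all genes) and 1 higher by DESeq2 (4.18%). It gave 2 higher and 1 lower with only the groups compared (7.81% and 5.75% of all genes). With each library left out it gave 0 to 2 higher (0.776% to 7.85% of all genes) and 0 to 3 lower (0.427% to 6.31%). Without young untreated mouse 2 it gave 3 lower with library totals (7% of all genes). It gave 2 higher and 3 lower with DESeq2 size factors (8.55% and 5.7%), and 1 higher and 3 lower by DESeq2 (7.89% and 4.92%). Numbers do not pair the mice (15 same-number pairs, r from -0.207 to 0.163, 4 of 11 libraries closest to their own number). With the replicate block 18 members were lower in young and 12 in aged mice (22% and 19.8% of all genes), and Top2a lost its aged call (-3.19, adjusted p = 0.0653). Leaving out an aged untreated mouse leaves 1, assumed to vary like the other groups. Genes under about 1 CPM rest on few reads.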
